A study of Homo sapiens with 18 samples.

Results

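The amino acid response is a set of genes that cells turn on when amino acids are scarce or when proteins misfold in the endoplasmic reticulum. Stress-sensing kinases phosphorylate the translation factor eIF2, general protein synthesis slows, and the mRNA of the transcription factor ATF4 is then translated more, so that ATF4 protein can increase with little change in its own mRNA. ATF4, with partners of the C/EBP family, induces genes that make, import and charge amino acids onto tRNA, together with stress-limiting and secreted proteins. Here 44 such genes, listed by name as members of this pathway, with earlier results of these data known, were followed in SKOV-3 cells, a human ovarian adenocarcinoma cell line. They comprised 7 regulators, 5 stress and secreted targets, 11 amino acid enzymes, 7 amino acid transporters and 14 cytosolic tRNA synthetases, which join each amino acid to its tRNA. Of the 44, 42 were measured, among 19775 genes in all. GPT2 and MARS1 were not analysed here, because no probe set naming either gene alone was in the annotation used.

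The arrays asked how SKOV-3 cells respond to luteinizing hormone (LH) through its receptor (LHR). LHR+ cells were stably transfected to express LHR and received no LH. LH1, LH4, LH8 and LH20 cells were the same LHR+ cells given LH at 50 ng/ml for 1, 4, 8 and 20 h. LHR- cells were SKOV-3 cells without the transfected receptor, described both as the parent line and as mock-transfected cells. Each of the 6 groups had 3 Affymetrix U133 Plus 2.0 arrays, described as independent replicates. Whether the LHR+ cells are 1 clone was not stated, so the LHR+ against LHR- difference is that of 2 cell populations. LHR- cells with LH and LHR+ cells kept for 20 h without LH were not among the groups, so LH and time in culture cannot be told apart.

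Median intensity over all probe sets lay between 46.9 and 57.9 on the 18 arrays. Epithelial and SKOV-3 markers (KRT8, KRT18, KRT19, EPCAM, ERBB2 and CD24, 6 of 6 measured) lay between 41.6 and 16363, and 6 of 7 measured hematopoietic and endothelial markers between 0.386 and 28.5, with 0 of these 6 passing the limma test, and 0 at an unadjusted p under 0.05, in any of the 6 comparisons made. The probe set of LHCGR, the gene of LHR, gave 0.196 to 4.11 on every array, LHR+ arrays included. Whether that probe lies within the transfected sequence was not given, so it does not check the labels.

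For each gene the brightest probe set was used, and differences are log2 fold changes of intensity + 1 from 1 limma fit over all 6 groups and 19775 genes. A gene passed the test at a Benjamini-Hochberg adjusted p under 0.1. It was called when it also changed by at least 2-fold, had an unadjusted p under 0.05, and had all 3 arrays of 1 group above all 3 of the other. Counts at an unadjusted p under 0.05 are given without a share over all genes, so they are not read as a difference from all genes. All 42 measured members were brighter than the median gene. In bulk RNA, fewer cells expressing a gene and less RNA per cell cannot be told apart.

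The promoters of several of these genes carry a C/EBP-ATF response element, the composite site that ATF4 with a C/EBP partner binds. These sequences are shown to place the element beside the measured changes. The letters TGATGNAA (TTNCATCA on the opposite strand) were searched on both strands in the RefSeq window from 250 bases before to 50 bases after each gene's start (GRCh38.p14). Of the 42 measured members, 33 had an entry (NUPR1, INHBE, PSPH, SHMT2, PYCR1, SLC7A11, LARS1, VARS1 and YARS1 had none), and 9 of the 33 (27.3%) held a match, against 1003 of 27305 (3.67%) of all promoters in the table. All 9 sites are shown 5′ to 3′ on the gene's strand, with the matching letters in capitals; ASNS and CHAC1 were taken because the genes were called, and the other 7 were added after the matches were seen.
ASNS (chr7:97872458-97872487, minus strand): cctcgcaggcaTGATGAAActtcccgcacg
CHAC1 (chr15:40953251-40953280, plus strand): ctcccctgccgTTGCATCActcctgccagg
AARS1 (chr16:70289675-70289704, minus strand): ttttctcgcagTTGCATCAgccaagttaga
IARS1 (chr9:92293692-92293721, minus strand): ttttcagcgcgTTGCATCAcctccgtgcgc
CARS1 (chr11:3057407-3057436, minus strand): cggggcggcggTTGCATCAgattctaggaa
TARS1 (chr5:33440956-33440985, plus strand): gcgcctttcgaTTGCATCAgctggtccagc
NARS1 (chr18:57621804-57621833, minus strand): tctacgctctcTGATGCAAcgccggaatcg
SLC7A1 (chr13:29595663-29595692, minus strand): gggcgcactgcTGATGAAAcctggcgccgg
SLC3A2 (chr11:62881725-62881748, plus strand): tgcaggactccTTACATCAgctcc

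Counted from the gene's start, the match lay at positions -68 to -61 in ASNS, -209 to -202 in CHAC1, -187 to -180 in AARS1 and -13 to -6 in IARS1. It spanned the start in CARS1 (-2 to 5) and followed it in TARS1 (2 to 9), SLC7A1 (7 to 14), NARS1 (14 to 21) and SLC3A2 (37 to 44). A match was present in 2 of 8 members with an entry that were called lower in LH20 cells (25%) and in 7 of 25 that were not (28%). These letters are a description of the windows and not a measured binding site.

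At 20 h of LH the members as a group lay lower than in LHR+ cells. In LH20 over LHR+ cells 12 of the 42 members were called lower, where 3.88% of all genes were, and 1 was called higher, where 3.83% were. At an adjusted p under 0.1, 27 members were lower (18% of all genes) and 3 were higher (16%). Of the 9887 genes in the brighter part of the array, above the median gene as all members were, 3.87% were called lower and 3.19% higher, and at an adjusted p under 0.1 28.8% were lower and 24.1% higher. The median log2 fold change was -0.38 over the 42 members, with 35 below 0, and -0.0041 over all genes. The members ranged from STC2 at -3.17 to CTH at 1.04, and the 5th percentile of all genes was -1.16. The LHR+ arrays serve as the reference in each of the 4 LH comparisons.

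**Figure D1:**
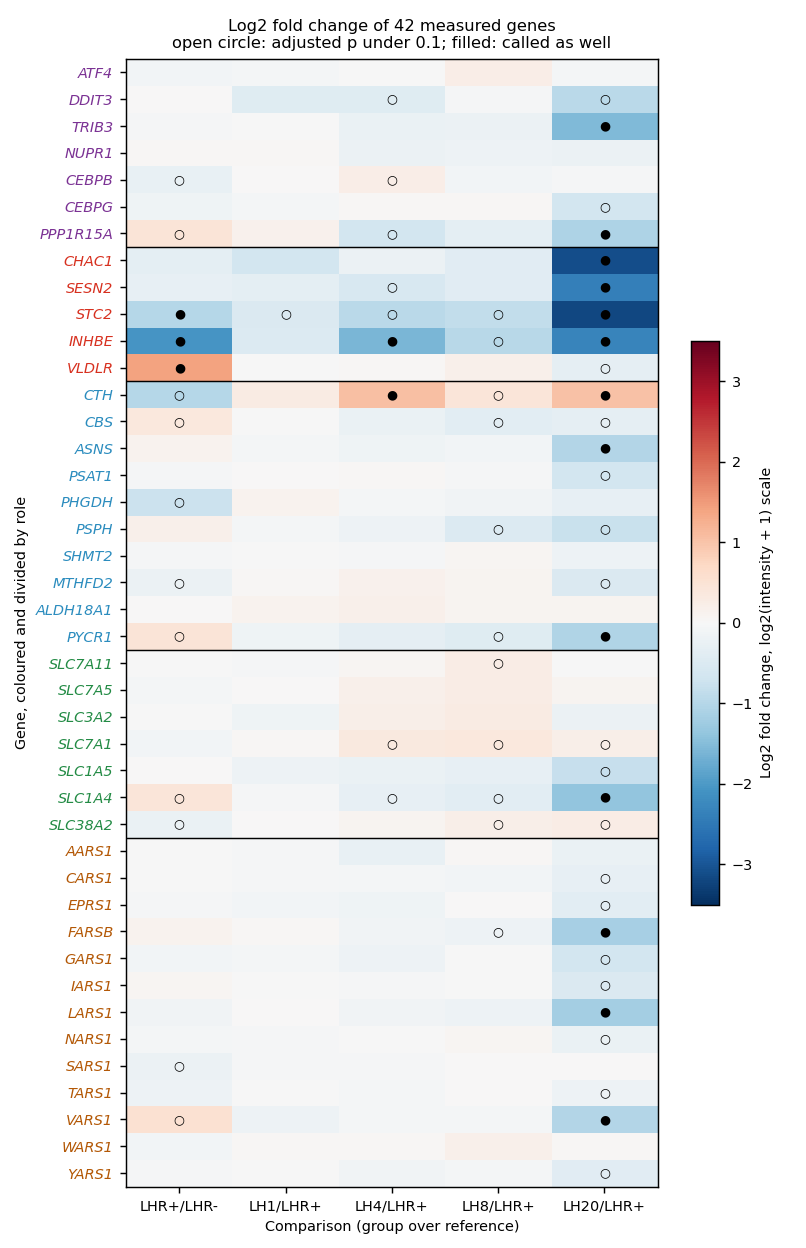
Log2 fold change (color, blue lower and red higher) of each of the 42 measured members (rows, grouped by role) in 5 comparisons (columns), with an open circle at an adjusted p under 0.1 and a filled circle where the gene was called as well. The LH20 over LHR+ column holds 27 lower genes with a circle, the deepest being STC2 (-3.17) and CHAC1 (-3.09).

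**Figure D2:**
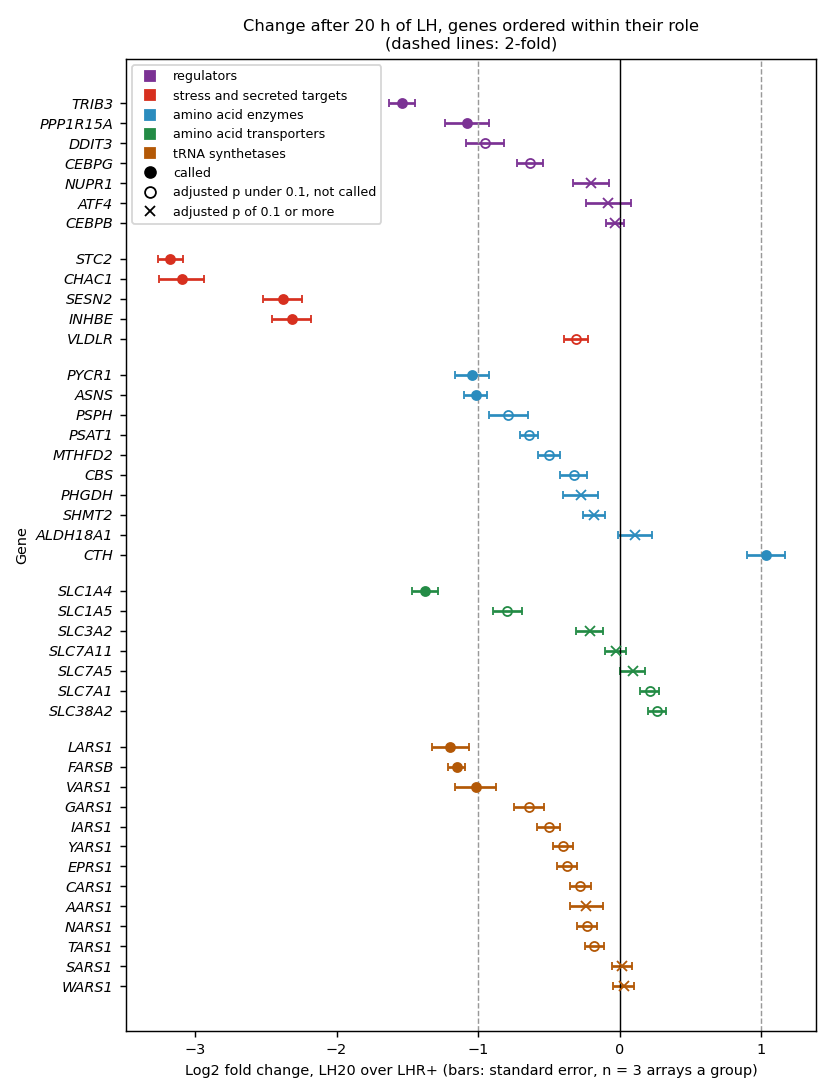
Log2 fold change of LH20 over LHR+ cells (x axis) for each member (y axis), grouped by role, with bars for the standard error of the limma fit (n = 3 arrays a group) and dashed lines at 2-fold. STC2, CHAC1, SESN2 and INHBE lie farthest to the left, and CTH (1.04) lies farthest to the right.

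The mRNA of the transcription factor itself did not pass the test. ATF4 (probe set 200779_at) gave 9506, 8375 and 11051 in LH20 cells, against 9084, 9375 and 12170.0 in LHR+ cells. The groups overlapped, and the log2 fold change of -0.08 (SE 0.16, adjusted p = 0.784) was within the spread of the arrays. By limma ATF4 passed the test in 0 of the 6 comparisons, with an unadjusted p between 0.0765 and 0.977, and no ATF4 protein was measured.

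Of the 7 regulators, 4 fell in LH20 over LHR+ cells and 0 rose by limma (4 and 0 at an unadjusted p under 0.05). TRIB3 (218145_at), a pseudokinase that ATF4 induces and that restrains ATF4 in turn, gave 4916, 4951 and 5059 in LHR+ cells and 5051, 4801 and 4946 after 1 h of LH. Its values were 4377, 4334 and 4100.5 after 4 h, 4396, 4412 and 4213 after 8 h, and 2065, 1563 and 1564 after 20 h. Every LH20 array was below every array of the earlier times, and the LHR- arrays (5076, 5151 and 5056) overlapped the LHR+ ones. TRIB3 fell by 1.54 in LH20 over LHR+ cells on the log2 scale (SE 0.09, adjusted p = 5.71e-08).

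PPP1R15A (37028_at), also named GADD34, brings a phosphatase to eIF2 and so ends the response. It gave 228, 220.3 and 185 in LH20 cells, against 464, 442 and 429.8 in LHR+ cells, which did not overlap. It fell by 1.08 (SE 0.16, adjusted p = 0.000154), and the call was lost without LH20 replicate 3. The 4 h arrays (362, 255 and 249) were also all below the LHR+ arrays, and the log2 fold change of -0.64 passed the test but not the 2-fold limit.

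DDIT3 (209383_at), the stress-induced factor CHOP, gave 1142, 1063 and 955 in LH20 cells, against 1884, 2066 and 2152 in LHR+ cells. The groups did not overlap and it fell by 0.95 (SE 0.13, adjusted p = 0.000123), just short of 2-fold. CEBPG, a C/EBP partner of ATF4, fell by 0.63. CEBPB (-0.03) and NUPR1 (-0.20), a small stress-induced nuclear protein, did not pass the test.

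The 5 stress and secreted targets all fell in LH20 over LHR+ cells, 4 of them past the criteria for a call. CHAC1 (219270_at) encodes an enzyme that degrades glutathione. It gave 1365, 1474 and 1209.6 in LHR+ cells, and 905, 859.8 and 839 after 1 h, 1213, 1089 and 1174 after 4 h, 1241, 1017 and 855 after 8 h and 197, 125 and 156 after 20 h. The 3 LH20 arrays stood far below all others, at 11.8% of the LHR+ mean. CHAC1 fell by 3.09 (SE 0.16, adjusted p = 2.06e-08). After 1 h all arrays were below the LHR+ ones, but the difference of -0.63 did not pass (adjusted p = 0.139).

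SESN2 (223196_s_at), a sestrin that senses leucine and restrains the growth kinase mTORC1, gave 380.3, 309 and 278 in LH20 cells, against 1584, 1807 and 1622 in LHR+ cells. The LH8 arrays (1336, 1317 and 1179.9) lay between them without overlap, but the LH8 over LHR+ difference did not pass the test. SESN2 fell by 2.38 (SE 0.14, adjusted p = 5.27e-08) in LH20 over LHR+ cells, and it was at -0.56 in LH4 over LHR+ cells, which also passed.

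STC2 (203438_at), a secreted glycoprotein hormone, was the member with the lowest log2 fold change. It gave 1419, 1687 and 1451 in LHR+ cells, then 1134, 1081 and 1012 after 1 h, 767, 776 and 808 after 4 h, 859, 820.2 and 803 after 8 h, and 164, 184 and 154 after 20 h. Arrays of each LH time lay below the LHR+ arrays without overlap. STC2 was the only member to pass the test at 1 h (-0.49, adjusted p = 0.0223), and its log2 fold change was -0.95 at 4 h, -0.87 at 8 h and -3.17 at 20 h (SE 0.09, adjusted p = 2.24e-10), each past the test. The 1 h value was 0.34 on the second brightest probe set of STC2 (adjusted p = 0.892).

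INHBE (210587_at) encodes an activin subunit of the TGF-beta family. It gave 589, 702 and 615 in LHR+ cells, then 456, 512 and 399 after 1 h, 198, 213 and 209.5 after 4 h, 398, 321 and 258 after 8 h, and 134, 120.3 and 126 after 20 h. The levels were low at 4 h, higher again at 8 h and lowest at 20 h. Against LHR+ cells the log2 fold change of INHBE was -1.61 at 4 h (adjusted p = 4.2e-06), -0.98 at 8 h and -2.32 at 20 h (SE 0.14, adjusted p = 6.04e-08), each past the test. VLDLR (209822_s_at), a lipoprotein receptor, gave 707, 631 and 596 in LH20 cells, against 808, 788 and 789 in LHR+ cells, and its log2 fold change of -0.31 passed the test but was under 2-fold.

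**Figure D3:**
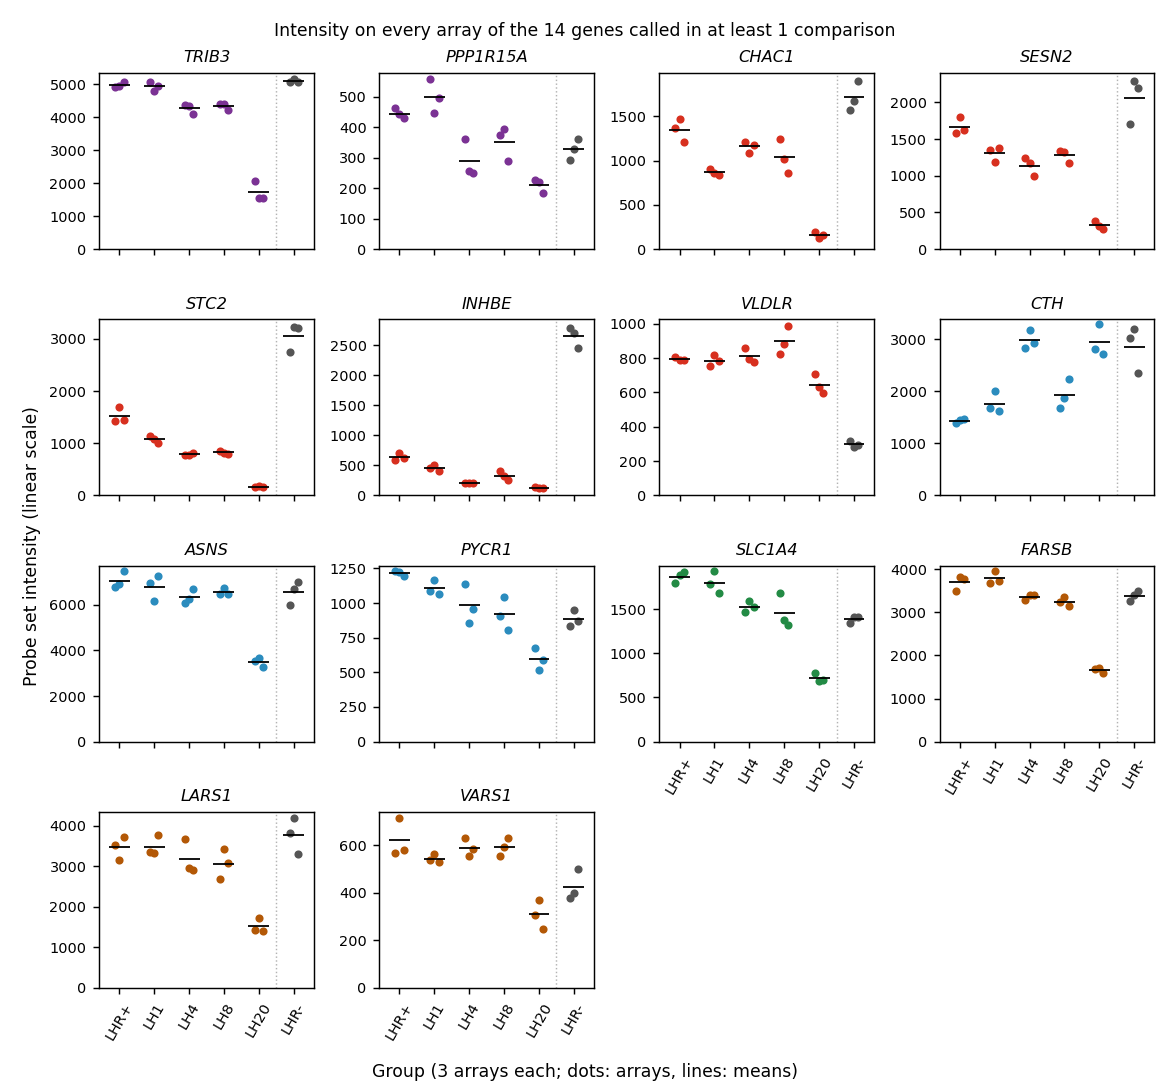
Probe set intensity (y axis, linear scale from 0) of each array (dots) with the group mean (line) for the 14 members called in at least 1 comparison, in the groups LHR+, LH1, LH4, LH8, LH20 and LHR- (x axis). The LH20 arrays of STC2 (164, 184 and 154) and CHAC1 (197, 125 and 156) lie below every other array of those genes.

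Among the 10 measured amino acid enzymes 6 fell and 1 rose in LH20 over LHR+ cells (median -0.41). ASNS (205047_s_at), asparagine synthetase, carries the element printed first above. It gave 3548, 3650.1 and 3274 in LH20 cells, against 6774, 6919.8 and 7503 in LHR+ cells, with the arrays of LH1, LH4 and LH8 between 6069 and 7281. It fell by 1.02 (SE 0.08, adjusted p = 1.13e-06), and being this close to 2-fold its call was lost without LHR+ replicate 3 or LH20 replicate 3. On the second brightest probe set, which was far dimmer, ASNS was at -1.90 (limma adjusted p = 0.0139). The arrays overlapped there, so it was not called.

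PYCR1 (202148_s_at), the last enzyme of proline synthesis, gave 677, 519 and 586 in LH20 cells, against 1234, 1224 and 1195 in LHR+ cells. The groups did not overlap and it fell by 1.04 (SE 0.12, adjusted p = 2.55e-05), a call lost under quantile normalization and without LH20 replicate 2. ALDH18A1, an earlier enzyme of the same pathway, was at 0.11 and did not pass. In serine synthesis PSPH (-0.79) and PSAT1 (-0.64) fell, while PHGDH, the first enzyme, was at -0.28 (adjusted p = 0.118). On their second brightest probe sets PSPH (-1.28) and PSAT1 (-1.635) were called lower. MTHFD2 fell by 0.50 and SHMT2, the other mitochondrial one-carbon enzyme listed, was at -0.18 and did not pass. On the second brightest probe sets SHMT2 was at -0.81 (limma adjusted p = 4.68e-05) and MTHFD2 at -0.32 (limma adjusted p = 0.111). Which of these 2 genes passed the test thus depended on the probe set.

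CTH (217127_at) makes cysteine from cystathionine and was the only member called higher at 20 h. It gave 1383, 1448 and 1462 in LHR+ cells, then 1673, 2000.4 and 1621 after 1 h, 2842, 3176 and 2938 after 4 h, 1684, 1882 and 2242 after 8 h, and 2814, 3288 and 2728 after 20 h. The 4 h and 20 h arrays formed 2 high groups with the 8 h arrays between them and the LHR+ arrays. CTH rose by 1.06 at 4 h (SE 0.13, adjusted p = 0.00018), by 0.43 at 8 h and by 1.04 at 20 h (SE 0.13, adjusted p = 5.57e-05). The 4 h call was lost when array medians were made equal and the 20 h call without LH20 replicate 2. CBS, which makes the cystathionine that CTH uses, fell by 0.32 at 20 h.

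The 7 transporters did not share a direction. SLC1A4 (209610_s_at), which carries alanine, serine and cysteine, gave 777, 682 and 702 in LH20 cells, against 1795, 1886 and 1920.5 in LHR+ cells. The groups did not overlap and it fell by 1.38 (SE 0.09, adjusted p = 1.78e-07). SLC1A5, the related glutamine carrier, fell by 0.79. SLC38A2, a carrier of small neutral amino acids, rose by 0.27 and SLC7A1, a cationic amino acid carrier, by 0.21. On the second brightest probe sets SLC38A2 was at 0.23 (limma adjusted p = 0.0866) and SLC7A1 at 0.04 (limma adjusted p = 0.91). The rise of SLC7A1 thus depended on the probe set. SLC7A11 (-0.03), SLC7A5 (0.09) and SLC3A2 (-0.21), which form the cystine and leucine exchangers, did not pass the test. SLC7A11 gave 9932, 9892 and 10060.0 in LH20 cells, against 9599, 10083 and 10792 in LHR+ cells.

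Of the 13 measured tRNA synthetases 10 fell and 0 rose in LH20 over LHR+ cells by limma (10 and 0 at an unadjusted p under 0.05, median -0.37), 3 of them past 2-fold. FARSB (223035_s_at), a subunit of the phenylalanine enzyme, gave 1689, 1710.2 and 1589.7 in LH20 cells, against 3500.4, 3822 and 3767 in LHR+ cells. It fell by 1.15 (SE 0.06, adjusted p = 2.93e-08), with the arrays of the earlier LH times between 3153 and 3962. LARS1 (222428_s_at), the leucine enzyme, gave 1417, 1720.5 and 1409 in LH20 cells, against 3533, 3148 and 3726 in LHR+ cells, and fell by 1.20 (SE 0.13, adjusted p = 1.39e-05). Its other probe sets were at -1.28 (222427_s_at), -1.39 (223888_s_at) and only -0.29 (217810_x_at), so the size of the fall depended on the probe set.

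VARS1 (201797_s_at), the valine enzyme, gave 308, 371 and 247 in LH20 cells, against 567, 715 and 578 in LHR+ cells, and fell by 1.02 (SE 0.14, adjusted p = 0.000125). That call sat at the 2-fold limit and was lost with a pseudocount of 16, under quantile normalization, and without LHR+ replicate 2 or LH20 replicate 3. On the second brightest probe set, which was far dimmer, VARS1 was at -1.98 (SE 0.80, limma adjusted p = 0.0986). The arrays overlapped there, so it was not called. The synthetases for glycine (GARS1, -0.64), isoleucine (IARS1, -0.50), tyrosine (YARS1, -0.40), glutamate and proline (EPRS1, -0.37), cysteine (CARS1, -0.28), asparagine (NARS1, -0.23) and threonine (TARS1, -0.18) also fell. Of the 9 genes with a printed element, ASNS, CHAC1, IARS1, CARS1, NARS1 and TARS1 were lower past the test on the brightest probe set. Among all 42 measured members 27 were, so this is not read as a difference tied to the element. SLC7A1 was higher past it there, though not on its second brightest probe set, and AARS1 and SLC3A2 did not pass. AARS1 (-0.24), SARS1 (0.02) and WARS1 (0.03) did not pass. On its second brightest probe set SARS1 was at -0.67 (adjusted p = 0.000188) and WARS1 at -0.22 (adjusted p = 0.0888), so their direction depended on the probe set.

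A second probe set was available for 26 members, and 24 of the 26 had the same sign in LH20 over LHR+ cells as on the brightest one. Of the 9 members called lower that had one, 9 were below 0 on it and 7 were called. The 6 epithelial markers all rose in LH20 over LHR+ cells, with a summed intensity of 38276 to 40411 in LH20 cells, against 26820 to 29254 in LHR+ cells, and ERBB2 was called higher (1.29). Their part in the lower values of the members was not tested.

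The fall at 20 h was set against the 8 h arrays as well. In LH20 over LH8 cells 7 members were called lower (2.23% of all genes) and 0 higher (2.36%) by limma. At an unadjusted p under 0.05, 31 members were lower and 1 higher, and at an adjusted p under 0.1 the numbers were 27 lower (13.5% of all genes, 22% of the brighter genes) and 1 higher (12.1% and 17.9%). CHAC1 (-2.70), STC2 (-2.30), SESN2 (-1.99), TRIB3 (-1.34) and INHBE (-1.34) fell, with standard errors between 0.09 and 0.16. SLC1A4 (-1.01) and LARS1 (-1.01) fell at the 2-fold limit. SLC1A4 lost its call without LH8 replicate 1, LH20 replicate 2 or LH20 replicate 3, with a pseudocount of 16 and on the mean of all probe sets. LARS1 lost its call without LH8 replicate 2, LH20 replicate 1 or LH20 replicate 3, under quantile normalization, on the mean of all probe sets and on the second brightest probe set. The member higher at an adjusted p under 0.1 was CTH, at 0.61.

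At the earlier times at most 1 member was called in either direction. In LH1 over LHR+ cells 0 members were called higher (0.293% of all genes) or lower (0.0303%) by limma. There 1 member, STC2, was lower at an adjusted p under 0.1 (0.303%) and 0 were higher (0.561%), and 5 were lower and 1 higher at an unadjusted p under 0.05. In LH4 over LHR+ cells CTH was called higher (1 member, against 1.3% of all genes) and INHBE lower (1 member, against 0.925%), with 3 members higher (4.9% of all genes, 7.6% of the brighter genes) and 6 lower (5.97% and 9.73%) at an adjusted p under 0.1. Besides those already given, SLC7A1 (0.35) and CEBPB (0.25) rose and DDIT3 (-0.42) and SLC1A4 (-0.29) fell at 4 h. In LH8 over LHR+ cells 0 members were called higher (1%) or lower (0.728%) by limma, with 4 higher (5.19% of all genes, 8.29% of the brighter genes) and 7 lower (5.73% and 9.22%) at an adjusted p under 0.1 and 7 higher and 12 lower at an unadjusted p under 0.05. SLC7A1 (0.38), SLC7A11 (0.25) and SLC38A2 (0.21) rose and PSPH (-0.47), PYCR1 (-0.42), SLC1A4 (-0.36) and CBS (-0.36) fell at 8 h. INHBE was called lower at 8 h without LHR+ replicate 1, LHR+ replicate 3 or LH8 replicate 1. By limma 0 of 13 tRNA synthetases passed the test at 1 h and at 4 h, where 0 and 3 had an unadjusted p under 0.05, and at 8 h FARSB did (-0.19).

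In cells without LH, those with the receptor were set against those without it. In LHR+ over LHR- cells 1 member was called higher (2.57% of all genes) and 2 were called lower (2.06%), and at an adjusted p under 0.1 there were 6 higher (10.4% of all genes, 15% of the brighter genes) and 8 lower (8.22% and 11.5%), with a median of -0.05. INHBE gave 589, 702 and 615 in LHR+ cells, against 2794, 2694 and 2458 in LHR- cells, and fell by 2.06 (SE 0.14, adjusted p = 3.22e-07). STC2 gave 1419, 1687 and 1451 in LHR+ cells, against 2757, 3219 and 3203 in LHR- cells, and fell by 1.01 (SE 0.09, adjusted p = 6.54e-06). This STC2 call lay at the 2-fold limit and was lost without LHR- replicate 2 or 3, without LHR+ replicate 1 or 3, and on the mean of its probe sets. On its second brightest probe set STC2 was at only -0.23 with overlapping arrays, and was not called.

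VLDLR rose by 1.41 (SE 0.09, adjusted p = 1.18e-07), with 808, 788 and 789 in LHR+ cells, against 319.6, 281 and 295 in LHR- cells. CTH (-0.99) and PHGDH (-0.75) fell, and each had all LHR+ arrays below all LHR- arrays. VARS1 (0.55), PYCR1 (0.46), PPP1R15A (0.45), SLC1A4 (0.43) and CBS (0.36) rose by under 2-fold, and CEBPB (-0.25), SLC38A2 (-0.23), MTHFD2 (-0.21) and SARS1 (-0.20) fell. After 20 h of LH the INHBE mean was 4.78% and the STC2 mean 5.47% of the LHR- mean, and the CTH mean was 103% of it. EPCAM, an epithelial marker, was called lower in LHR+ over LHR- cells (-1.51), and its part in these differences was not tested.

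Other genes of the pathway, listed by function, were counted in LH20 over LHR+ cells. The shares to read these counts against are those given above, 18% of all genes lower and 16% higher at an adjusted p under 0.1 (28.8% and 24.1% of the brighter genes). Of 14 other ATF4 targets measured, 4 fell and 1 rose, and the number that fell is near that background. GADD45A, a growth arrest protein, gave 2190.1, 1855 and 1776 in LH20 cells, against 6768, 6448 and 6865 in LHR+ cells, and fell by 1.79 (SE 0.10, adjusted p = 4.28e-08). GDF15, a secreted stress cytokine, gave 21.2, 73.7 and 57 in LH20 cells, against 221, 347 and 262 in LHR+ cells, and fell by 2.57 (SE 0.40, adjusted p = 0.00024). The LH20 and LHR+ arrays of both genes did not overlap. EIF4EBP1, which restrains cap-dependent translation, fell by 0.94, and ATF3, a stress factor induced by many stimuli, rose by 0.54. ATF3 was called higher at 1 h (1.97) and at 4 h (1.03).

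Of 16 other amino acid and one-carbon enzymes measured, 4 fell and 4 rose, also near the background of 18% lower and 16% higher over all genes. GOT1, the cytosolic aspartate aminotransferase, gave 299, 285 and 308 in LH20 cells, against 1022, 1014 and 974 in LHR+ cells, and fell by 1.75 (SE 0.07, adjusted p = 5.38e-09). ASS1, which makes argininosuccinate from citrulline, gave 3813, 4465 and 4078 in LH20 cells, against 1841, 1764 and 1857 in LHR+ cells, and rose by 1.17 (SE 0.10, adjusted p = 1.8e-06). Neither gene had overlapping groups. Of 5 other cytosolic synthetases and scaffolds measured, 3 fell (median -0.23), and of 15 mitochondrial synthetases 4 fell and 3 rose (median -0.07), MARS2 being the one called (-1.23, adjusted p = 0.0887). MARS2 was dim, with 31.9, 16.9 and 24.25 in LH20 cells, against 62.9, 52.7 and 54.6 in LHR+ cells. Of 15 genes of eIF2, its kinases and eIF2B, 6 fell and 1 rose, among them EIF2B3 (-0.88), EIF2S1 (-0.64) and the kinase EIF2AK3 (0.46). Of 13 other amino acid transporters 4 fell and the other 9 did not pass. With lists this short, none of these counts is read as different from the shares over all genes.

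**Figure D4:**
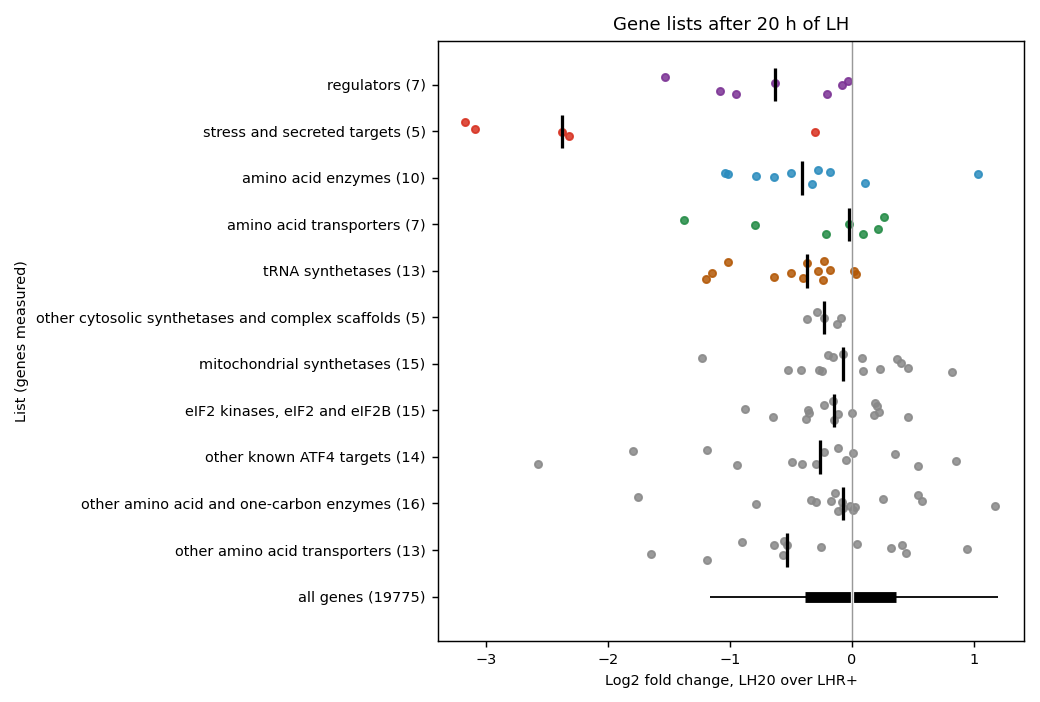
Log2 fold change of LH20 over LHR+ cells (x axis) for each measured gene (dots) of the 5 member roles and 6 other pathway lists, with each list's median as a black line, and for all genes the 25th to 75th percentile as a box and the 5th to 95th as a line. The stress and secreted targets have the lowest median (-2.38), against -0.07 for the mitochondrial synthetases.

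In LHR+ over LHR- cells the same lists held ASS1 (3.08) and FGF21 (2.10) called higher, and BCAT1 (-1.42), GDF15 (-1.65) and SLC6A15 (-1.96) called lower. SLC6A15 was dim, with 21.1, 18.8 and 14.4 in LHR+ cells, against 69.7, 64.5 and 84.2 in LHR- cells. FGF21, a secreted metabolic hormone, gave 27.7, 15.6 and 25.5 in LHR+ cells, against 2.14, 12.8 and 2.66 in LHR- cells, all below the array medians. In LH over LHR+ cells SLC38A5 was called lower at 4 h (-2.18) from intensities of 1.31 to 3.54 in LH4 cells, against 3.91 to 28.7 in LHR+ cells, and GDF15 was called lower at 8 h (-1.74).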

How the data were processed

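Total RNA was amplified and hybridized to 18 Affymetrix U133 Plus 2.0 arrays. Probe set intensity values on a linear scale were deposited by the authors; their processing notes name PLIER, whereas the study's methods name RMA, and version and settings were not given in the sources used here. Raw probe intensities were not used here. Of 54675 probe sets, 41097 list 1 gene symbol, 1801 several and 11777 none; the brightest single-symbol probe set was kept for each of 19775 genes. Values were taken as log2(intensity + 1) and tested with limma 3.58.1 in R 4.3.3, 6 group means, Benjamini-Hochberg over all genes. The methods' ANOVA and rank tests were replaced by limma. An exact rank test of 3 against 3 arrays cannot go below p = 0.1, a limit that does not apply to the ANOVA. The number of arrays limits the precision. Members and lists were chosen with earlier results of these data known. Every member is accounted for; array values are given for members called in at least 1 comparison and, added after their values were seen, for ATF4, DDIT3 and SLC7A11, and up to 4 called genes per other list. The fit was tested on simulated data. Alternatives were a pseudocount of 16, equal array medians, quantile normalization, the mean or second brightest probe set, brighter genes only, 2-group fits, no variance moderation, a replicate block, and leaving out each array.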

Additional observations from a re-analysis of the deposited data

Results flagged for a closer look

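For 28 members LH20 and LH8 cells differed at an adjusted p under 0.1 by limma. The shared LHR+ level cancels in LH20 over LH8 cells, but LH and time in culture cannot be told apart. The 7 members that also met the 2-fold and separation criteria are given here. CHAC1 was at -2.70 (SE 0.16, adjusted p = 1.82e-07), STC2 at -2.30 (SE 0.09, adjusted p = 1.48e-08) and SESN2 at -1.99 (SE 0.14, adjusted p = 8.8e-07). TRIB3 was at -1.34 (SE 0.09, adjusted p = 6.8e-07) and INHBE at -1.34 (SE 0.14, adjusted p = 2.14e-05). SLC1A4 was at -1.01 (SE 0.09, adjusted p = 7.92e-06) and LARS1 at -1.01 (SE 0.13, adjusted p = 0.000126). All 3 LH20 arrays of each gene lay below all 3 LH8 arrays. The groups of 3 arrays were not searched for outlying arrays.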

How the results depend on the processing

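Without the 2-fold and separation criteria the members higher and lower numbered 6 and 8 in LHR+ over LHR- cells, 0 and 1 at 1 h, 3 and 6 at 4 h, 4 and 7 at 8 h, 3 and 27 at 20 h, and 1 and 27 in LH20 over LH8 cells. With equal array medians 0 members were called higher and 2 lower at 4 h, and the median of all genes at 1 h moved to -0.10. On the mean of all probe sets 1 member was called lower in LHR+ over LHR- cells. On the second brightest probe set, a choice made after seeing the data and open to 26 members, 0 were called higher and 0 lower in LHR+ over LHR- cells, 0 lower at 4 h and 1 lower at 8 h. The sign turned on the second brightest probe set for STC2 at 1 h (0.34), WARS1 at 20 h over LHR+ cells (-0.22) and SARS1 at 20 h (-0.67 over LHR+ and -0.59 over LH8 cells), and on the mean of probe sets for SARS1 (-0.32 over LHR+ and -0.29 over LH8 cells). The cause was not tested. Leaving out 1 array gave 1 to 2 members called lower and 1 called higher in LHR+ over LHR- cells, 0 to 1 lower at 8 h, 9 to 13 lower and 0 to 1 higher at 20 h, and 5 to 8 lower in LH20 over LH8 cells. It left the 1 h counts at 0 and the 4 h counts at 1 each.

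Replicate numbers were shared by the groups, but nothing in the labels says that a number marks a shared batch or day, and 17 of 45 same-numbered pairs correlated above 0.1 (range -0.234 to 0.395), so the numbers were not taken as pairs. The mean correlation was 0.0444 for same-numbered and -0.0226 for other pairs, and 11 of 18 arrays correlated best with their own number, a hint of a weak shared deviation. With the replicate block the counts of called members did not change, 12 lower and 1 higher at 20 h among them. Of 252 member results, 249 kept their side of the threshold, and their direction where past it, with a pseudocount of 16. The number was 246 with the block, 240 with quantile normalization, 227 with 2-group fits and 225 with the mean of all probe sets. On the second brightest probe set, open to 26 members, 123 results did so, 22 no longer passed, 7 newly passed and 4 turned sign. FGF21 and SLC38A5 had intensities below every array's median, and SLC6A15 and MARS2 were dimmer than the median gene. All 42 members were brighter than the median gene.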
